A study of Drosophila melanogaster with 8 samples.

Results

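The genes described here encode RNA-binding proteins with a KH domain: mub and 8 relatives, which are ps, bl, how, Fmr1, Psi, qkr58E-1, qkr58E-2 and qkr58E-3. They are 9 of the 17445 features in the count files. The group was chosen on measured values in 1 respect: mub was picked for its lower read count in Ldh mutants than in controls, so its own difference is given as a description and carries no test. The other 8 were listed by gene family, and their domains were taken from that listing. The files carry bl (bancal) under the symbol HnRNP-K, which is used below.

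RNA was collected from whole Drosophila melanogaster larvae in the middle of the L2 stage, 25 larvae to a sample, after 60 h of growth at 25 °C on yeast paste. The mutant group of 4 libraries (replicates 1, 2, 3 and 6) had the genotype w[1118]; Ldh[16/17], which combines mutant alleles of Ldh, the gene of lactate dehydrogenase. The control group of 4 libraries (replicates 1, 2, 5 and 6) had the genotype w[1118]; Ldh[precise], a precise excision, in which a transposon leaves its locus intact. Both groups therefore carried the w[1118] background. Whether samples of 1 group were raised as separate cultures is not in the labels. The p-values therefore measure spread between these samples alone, and that spread may be technical.

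Each library held 371700 to 560865 reads assigned to genes, which were 1.24% to 1.62% of the alignments counted. Levels are given as CPM, the reads of a feature for each 1000000 gene-assigned reads of its library after TMM scaling, as mean ± SD with n = 4 in each group. Ldh had 0 reads in every mutant and 1 to 5 reads in every control, 13 in all, at least 4.50-fold lower in mutants when 3 reads are taken as the floor over the group. Mutants differed more among themselves than controls did, and mutant replicate 3 stood furthest apart. The chi-square per degree of freedom between libraries of a group was 7.02 to 10.5 for pairs with it. It was 2.66 to 6.35 for the other mutant pairs and 1.63 to 2.83 for control pairs. Features with an exon opposite an exon of another gene were 26.1% of those placed in the annotation but held 94.2% of the gene reads. The strand setting of the counting is not given in the sources used here, so it cannot be told from which of a pair of genes on opposite strands a read came, and a feature can differ without any difference in the mRNA of the gene that names it. The ribosomal protein genes RpS3, RpL5 and RpL11, named after their values were seen, had 122, 96 and 40 reads in all libraries together. Whether the strand opposite to each gene was counted was not tested. Each member is therefore set beside the features on its other strand and within its introns.

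The KH domain is a small fold that grips a few bases of single-stranded RNA, and many KH proteins carry several copies in a row. Through it these proteins choose exons in splicing, hold back or release translation, and set the stability of messages. Several of the genes here are best known from the nervous system, where splicing regulators of the Nova type and the fragile X protein shape synapses, and from muscle and tendon, where STAR proteins of the Quaking type act.

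mub had the most reads of the 9 genes and the largest difference among those that passed the expression filter. It encodes a relative of the mammalian poly(C)-binding proteins, regulates alternative splicing and is named for its expression in the mushroom bodies, the learning centres of the fly brain. The 4 mutant libraries held 35, 44, 34 and 33 mub reads (replicates 1, 2, 3 and 6), against 100, 106, 160 and 103 in the controls (replicates 1, 2, 5 and 6). The groups did not overlap: the highest mutant, replicate 2 at 88.4 CPM, lay far below the lowest control, replicate 2 at 250.1 CPM. The mean level was 78.9 ± 8.78 CPM in mutants and 261.8 ± 13.2 CPM in controls, 3.32-fold higher in controls. The coefficient of variation was 11.1% over the mutants and 5.05% over the controls. The ratio of mub reads, mutant over control and scaled for library size, was 0.300, with an exact 95% interval of 0.247 to 0.362 that covers counting error only.

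In the edgeR quasi-likelihood fit across the 2589 features that passed the expression filter, the log2 fold change of mub was -1.72 (SE 0.14), where the median over all features was 0.01. In that comparison 3.17% of features were called at an adjusted p under 0.05, 1.54% higher in mutants and 1.62% lower. As mub was chosen on this contrast, its place among them is not read as a result. The log2 fold change of mub lay between -1.78 and -1.68 over the alternatives of scaling, filter and tool and with each library left out. The latter value was without mutant replicate 3. Adding opposite-strand reads left the mub counts unchanged, so the strand was not checked for mub. Groups that did not overlap were found for 9.23% of all tested features. In whole larvae, fewer cells of a type, less mub RNA per cell and fewer reads from the other strand cannot be told apart.

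**Figure D1:**
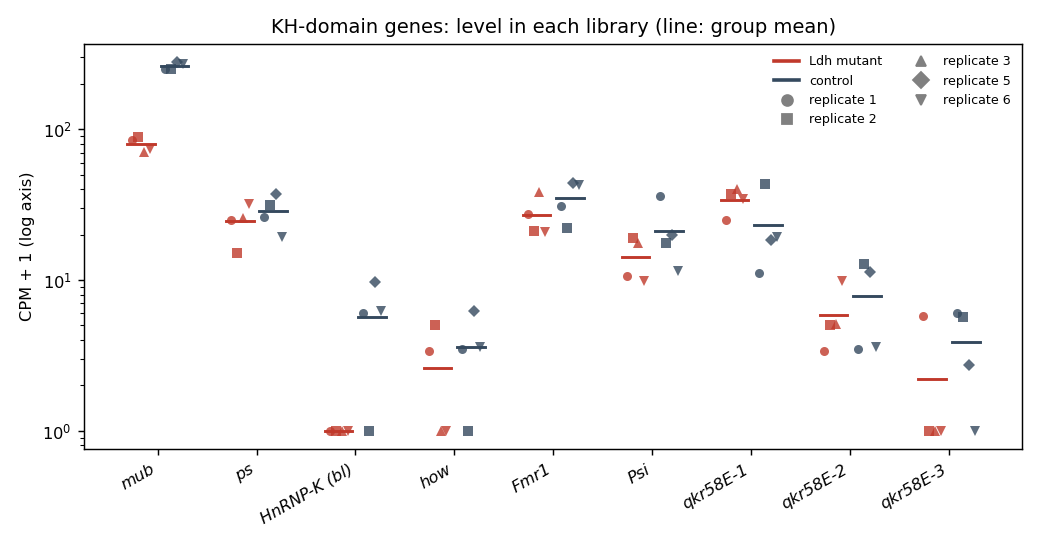
Level of each KH-domain gene in each library, as CPM + 1 on a log axis, with Ldh mutants in red, controls in blue, the replicate number given by the symbol and a line at each group mean. The mub points of the groups lie apart, with the highest mutant at 88.4 CPM and the lowest control at 250.1 CPM, while the points of the other 8 genes overlap between groups.

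mub (FBgn0262737) lies on the plus strand of 3L at 21844788 to 21932702 in the BDGP6 annotation, a span of 87915 bases with 12718 bases of exon in 13 blocks, of which 1906 are coding. mub has no exon of another gene on its other strand. The same held for 408, or 15.8%, of the tested features, among which mub had rank 33 by reads. Within its introns, on the opposite strand, lie the transfer RNA gene tRNA:Cys-GCA-4-1 and the noncoding RNA genes lncRNA:CR43878 (21884511 to 21887039) and lncRNA:CR45959 (21904173 to 21904862). The first had 0 reads in all 8 libraries, and each of the noncoding RNAs had 3 reads in all, 1 in mutants and 2 in controls. These features share no exon bases with mub, so their few reads do not show from which strand the 615 reads of mub came.

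The tested neighbours had smaller differences than mub, which is a description only, since mub was chosen for its fall. CG14563, which lies 2401 bases before mub, had 1 read in all libraries together. SLC22A, 2001 bases beyond mub an organic ion transporter gene, had 0, 3, 2 and 4 reads in mutants and 2, 3, 1 and 0 in controls (exact two-sided permutation test, p = 0.714). The nearest tested features were P5CDh1 (3432 bases away), a proline catabolism gene with a log2 fold change of -0.12, and Nopp140 (8103 bases away), a nucleolar protein gene at -0.28, neither of them called. Within 500000 bases on each side lay 140 features, of which 23 were tested, with log2 fold changes from -0.63 to 0.44 and a median of -0.01. The single one called was asRNA:CR43933, which lies opposite Hr78 and Glg1 and had a log2 fold change of -0.63 (edgeR adjusted p = 0.00245), 345958 bases from mub. mub and Ldh are on the same arm, with 15582093 bases between them.

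**Figure D2:**
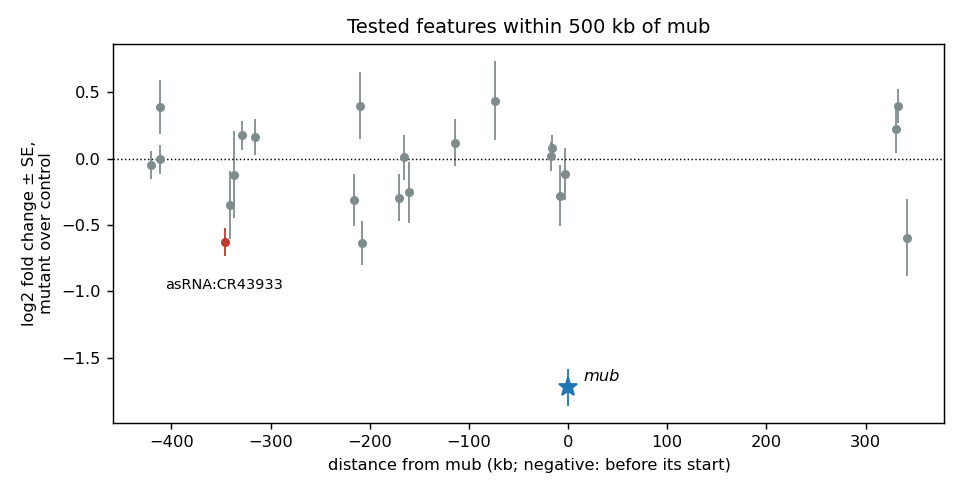
Log2 fold change, mutant over control, with its standard error, for mub (star) and the 23 tested features within 500000 bases of it, against distance from mub in kb. The 23 neighbours lie between -0.63 and 0.44 and mub lies at -1.72, with asRNA:CR43933, the single called neighbour, in red.

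Markers of the tissues in which KH proteins are known were read beside mub. Of 6 markers of the central nervous system 5 were analysed here, all with reads, and their summed level was 1843 to 2067 CPM in mutants and 2009 to 2463 CPM in controls. That sum was almost all elav, the neuronal RNA-binding protein gene, which lies opposite arg. The log2 fold change of elav was -0.18 (SE 0.09; edgeR adjusted p = 0.355), and nSyb, brp, Syt1 and repo had 0 to 14 reads each in a library. Muscle markers summed to 1814 to 2209 CPM in mutants and 1852 to 2268 CPM in controls. Fat body markers summed to 18.1 to 37.7 CPM in mutants and 26.2 to 42.5 CPM in controls, with Fbp1 at 0, and midgut markers to 14.1 to 53.5 CPM and 7.54 to 28.8 CPM, with Npc2f at 0. The 9 markers that passed the filter were 7 of muscle, 1 of fat body, 1 of the nervous system and 0 of midgut. None was called. Midgut reads in mutants and controls were 28 and 6 for Jon99Ciii (exact two-sided permutation test, p = 0.0857) and 19 and 9 for Jon65Aiv. They were 2 and 1 for Amy-p, 3 and 6 for betaTry, 4 and 5 for Mal-A1, and 0 and 1 for alphaTry. The part of tissue makeup in the mub difference was not tested.

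By the rule used here, the features whose profile over the 8 libraries was most like that of mub were Adk3 (r = 0.990), Zip99C (0.987), Sodh2 (0.971), Psf3 (0.960) and Surf1 (0.959). These are Pearson correlations of log2(CPM + 1) given as a description, since all 5 were low in the same 4 mutant libraries. Adk3, an adenylate kinase gene, had 2 reads in mutants and 479 in controls. Zip99C, a Zip family metal transporter gene, had 45 to 64 reads in each mutant and 94 to 173 in each control. Sodh2, of sorbitol dehydrogenase, had 6 to 12 and 37 to 72, and Surf1, a cytochrome c oxidase assembly factor gene, had 57 to 74 and 80 to 110. Psf3, of the GINS replication complex and opposite CG17841, had 498 to 617 and 571 to 852. None of the 5 lies within the 500000 bases around mub.

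The other 8 genes together had 39, 48, 59 and 46 reads in mutants and 46, 54, 82 and 38 in controls. Their summed level was 93.9 to 121.5 CPM in mutants and 99.4 to 141.7 CPM in controls, so the groups overlapped. mub made up 36.6% to 47.8% of the reads of all 9 genes in mutants and 66.1% to 73.0% in controls. Of the 9, 4 passed the expression filter (mub, ps, Fmr1 and qkr58E-1), and of the other 3 that passed, 0 were called, with 0 at an unadjusted p under 0.05 and 0 called by DESeq2 or limma-voom. The 5 below the filter (HnRNP-K, how, Psi, qkr58E-2 and qkr58E-3) were tested singly on log2(CPM + 1) by exact two-sided permutation, whose smallest possible p is 0.0286, and 0 reached it.

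Among the splicing regulators, ps (pasilla) encodes the fly counterpart of the Nova proteins and lies on 3R at 9417940 to 9455500, plus strand, with no feature on its other strand or within its introns. It had 10, 7, 12 and 14 reads in mutants and 10, 13, 21 and 7 in controls, with mutant replicate 2 the lowest, control replicate 5 the highest and the groups overlapping. The level was 23.5 ± 7.01 CPM in mutants and 27.6 ± 7.70 CPM in controls. The log2 fold change was -0.28 (SE 0.31; approximate 95% interval -0.89 to 0.34; edgeR adjusted p = 0.766).

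Psi, the P-element somatic inhibitor, binds a P-element transcript and keeps one of its introns unspliced in somatic cells. It lies on the minus strand of 2R at 16861321 to 16867714. Mutant libraries had 4, 9, 8 and 4 reads and control libraries 14, 7, 11 and 4, with control replicate 1 highest and the groups overlapping. The ratio of reads was 0.669 (exact 95% interval 0.385 to 1.15; exact permutation p = 0.200). The end of Psi overlaps 418 bases of exon of Dek, a chromatin protein gene on the plus strand, which had 54.9 ± 8.04 CPM in mutants and 60.6 ± 14.9 CPM in controls with log2 fold change -0.14 (SE 0.22; edgeR adjusted p = 0.853). All reads of Psi and Dek summed gave -0.26 (SE 0.23; edgeR adjusted p = 0.643), not called. Dek has 4138 bases of exon, of which 418 overlap Psi, so the sum does not show what either strand held.

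HnRNP-K encodes a poly(C)-binding protein of the nucleus and was the 1 gene of the 9 with no read in a whole group. All 4 mutants had 0 reads, and the controls had 2, 0, 5 and 2. Control replicate 2, also at 0, made the groups overlap, and the exact permutation test gave p = 0.143. With 3 reads as the floor for the mutant group as a whole, the control level was 3.11 times that floor, scaled for library size. The exact 95% interval of the ratio, mutant over control, reached from 0 to 0.488, counting error only. With no expression filter, edgeR gave an adjusted p of 0.107 for it. The gene lies on 2R at 20587551 to 20606854, plus strand, with mir-7, which was not analysed here, within an intron on the same strand.

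how (held out wings) encodes a STAR protein of the Quaking type that acts in tendon and muscle, and lies on 3R at 22042191 to 22079321, plus strand, with no feature overlapping it. It had 1, 2, 0 and 0 reads in mutants and 1, 0, 3 and 1 in controls. The ratio of 0.578 had an exact 95% interval of 0.0898 to 2.97 (exact permutation p = 0.486), so no difference was detectable with so few reads. Muscle markers summed to 708 to 1312 reads in each of the same libraries.

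Fmr1 encodes the fly fragile X protein, which represses translation of bound messages in neurons. It lies on 3R at 10101420 to 10110121, minus strand, with no overlapping feature. Mutants had 11, 10, 18 and 9 reads and controls 12, 9, 25 and 16. Mutant replicate 3 lay above control replicates 1 and 2, so the groups overlapped, at 25.9 ± 8.04 CPM in mutants and 34.1 ± 10.4 CPM in controls. The log2 fold change was -0.41 (SE 0.31; 95% interval -1.01 to 0.20; edgeR adjusted p = 0.624) and was -0.65 without mutant replicate 3, still not called.

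The 3 remaining genes, qkr58E-1, qkr58E-2 and qkr58E-3, are STAR proteins related to Quaking and mammalian Sam68, and sit side by side on 2R. From the start of VepD to the end of mRpS29 the interval covers 11852 bases and 7 features, and each of the 3 qkr58E genes shares exon sequence with a gene on its other strand. The order along the arm is VepD (+), qkr58E-3 (-), PolE4 (+), qkr58E-1 (-), qkr58E-2 (+), asRNA:CR45152 (-) and mRpS29 (-).

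qkr58E-1 (22412556 to 22415518) was the 1 tested gene of the 9 with a higher mean in mutants. It had 10, 18, 19 and 15 reads in mutants and 4, 18, 10 and 7 in controls. Control replicate 2, at 42.5 CPM, was the highest library of all, and the other controls, the highest of them at 18.3 CPM, were below every mutant, the lowest of which was at 24.1 CPM. The means were 33.1 ± 6.51 CPM in mutants and 22.0 ± 14.1 CPM in controls, and the log2 fold change was 0.61 (SE 0.36; 95% interval -0.11 to 1.32; edgeR adjusted p = 0.487). Without control replicate 2 the log2 fold change was 1.10 and still not called (edgeR adjusted p = 0.156), and without control replicate 1 it was 0.39.

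PolE4, a subunit gene of DNA polymerase epsilon, overlaps the end of qkr58E-1 by 27 bases of exon. Its means lay the other way, with 11, 16, 12 and 17 reads in mutants and 25, 27, 20 and 25 in controls. Mutant replicate 6, at 37.7 CPM, lay above control replicate 5, at 34.6 CPM, and below the other controls. With all libraries PolE4 was at -0.86 (SE 0.27) on the log2 scale and not called (edgeR adjusted p = 0.110). Without control replicate 5 it was called, at -1.07 (edgeR adjusted p = 0.0413).

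qkr58E-2 (22415560 to 22419001) had 1, 2, 2 and 4 reads in mutants and 1, 5, 6 and 1 in controls, with overlapping groups and a ratio of 0.667 (exact 95% interval 0.252 to 1.69; exact permutation p = 0.771). On its other strand lies asRNA:CR45152 (22415795 to 22416462), a noncoding RNA that shares 541 bases of exon with it and that had most of the reads of the locus. That feature had 66, 70, 89 and 77 reads in mutants and 78, 73, 112 and 72 in controls, against 22 reads of qkr58E-2 in all libraries together. The level of asRNA:CR45152 was 163.3 ± 18.1 CPM in mutants and 187.5 ± 10.7 CPM in controls, overlapping by mutant replicate 3 and control replicate 2, with log2 fold change -0.20 (SE 0.13; edgeR adjusted p = 0.564). mRpS29, of the small subunit of the mitochondrial ribosome, overlaps the end of qkr58E-2 by 65 bases and had 5 to 12 reads in each mutant and 10 to 14 in each control (log2 fold change -0.55, SE 0.33, edgeR adjusted p = 0.486). When qkr58E-2 was given the reads of these opposite features in place of its own, it was at -0.26 (log2; SE 0.13; edgeR adjusted p = 0.363), and with both summed also at -0.26 (SE 0.12; edgeR adjusted p = 0.300).

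qkr58E-3 (22409208 to 22411545), also known as kep1, had 2, 0, 0 and 0 reads in mutants and 2, 2, 1 and 0 in controls, and the ratio of 0.385 had an exact 95% interval of 0.0367 to 2.35 (exact permutation p = 0.371). Of the 8 features in the files that overlap these genes 5 passed the expression filter, and its opposite feature was the 1 of these called, where 3.17% of all tested features were called. VepD (22408525 to 22409342), whose exons overlap those of qkr58E-3 by 135 bases, had 37, 30, 35 and 30 reads in mutants and 46, 49, 67 and 53 in controls. Every mutant lay below every control, at 72.0 ± 12.4 CPM and 121.4 ± 11.5 CPM. VepD fell by 0.75 (log2; SE 0.16; edgeR adjusted p = 0.0169). It was no longer called without control replicate 6 (-0.69; edgeR adjusted p = 0.0586), mutant replicate 2 (-0.67; adjusted p = 0.0698) or mutant replicate 6 (-0.72; adjusted p = 0.0599). Given all VepD reads in place of its own, the qkr58E-3 row was called lower, at -0.77 (log2; SE 0.15; edgeR adjusted p = 0.0141). With both summed it was at -0.78 (SE 0.16; edgeR adjusted p = 0.0201). VepD has 759 bases of exon, of which 135 overlap qkr58E-3, and 347 reads against 7 of qkr58E-3. These calls therefore restate that of VepD and do not show from which strand the reads of qkr58E-3 came.

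**Figure D3:**
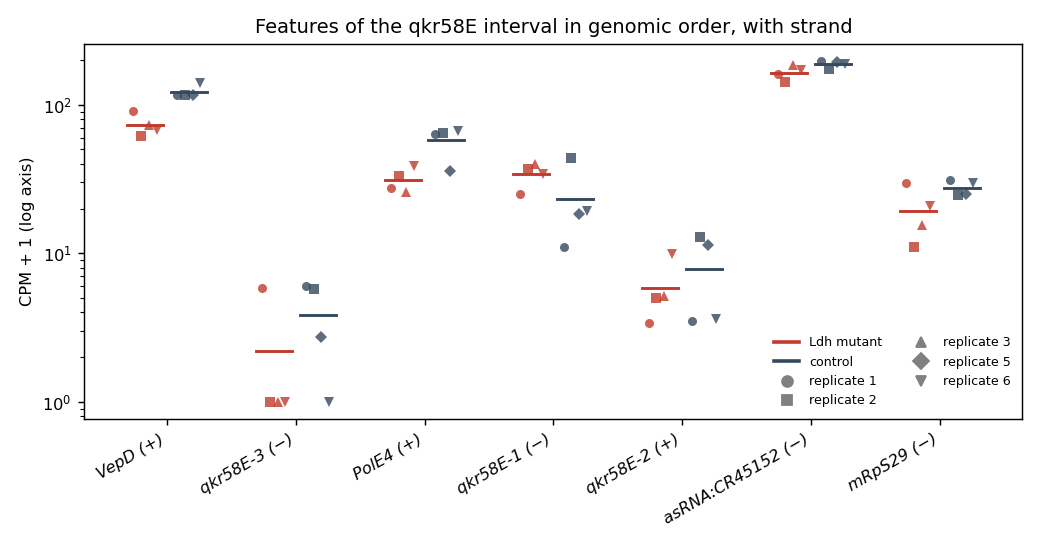
Level in each library of the 7 features of the qkr58E interval, in genomic order with the strand in brackets, as CPM + 1 on a log axis, with Ldh mutants in red, controls in blue and a line at each group mean. The groups of VepD lie apart, at 60.3 to 89.1 CPM in mutants and 115.5 to 138.6 CPM in controls, asRNA:CR45152 is the most counted feature, and the 3 qkr58E genes overlap between groups.

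**Figure D4:**
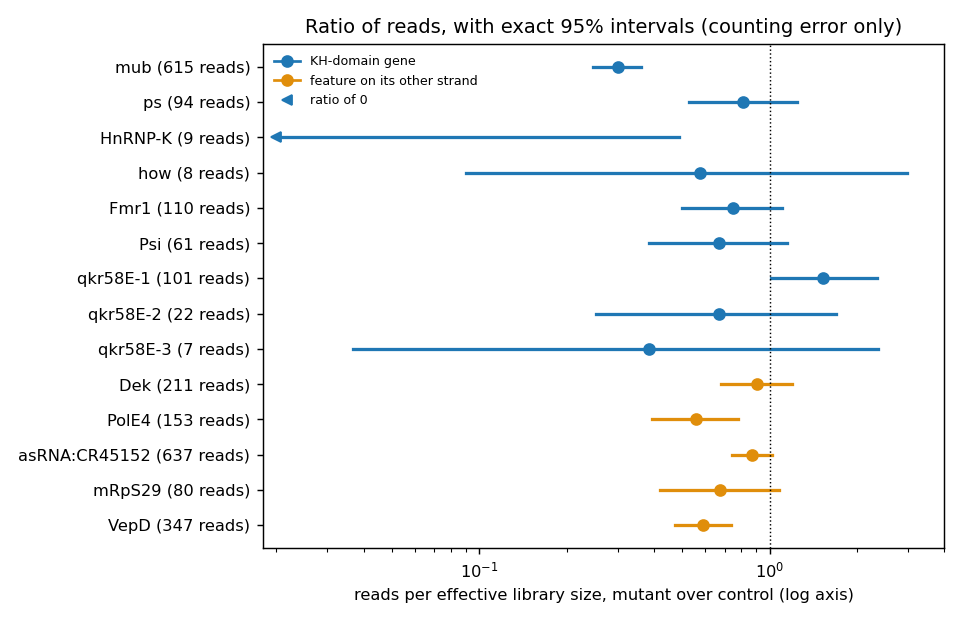
Ratio of reads, mutant over control and scaled for library size, on a log axis, with exact 95% intervals for counting error only, for the 9 KH-domain genes (blue) and the features on their other strands with at least 20 reads (orange). The ratio of mub is 0.300, shown as a description, and how and qkr58E-3 have intervals that span more than a factor of 10 and include 1.

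Ordered by level per kb of exon, which allows for gene length, mub was first in controls at 20.6 CPM per kb, followed by qkr58E-1 (8.12) and Fmr1 (6.96). This is an order of counted features, since the strand of the reads is not known. In mutants qkr58E-1 was first at 12.2 CPM per kb, followed by mub (6.21) and Fmr1 (5.28). At the low end of the order, how had 0.507 CPM per kb in controls and 0.316 in mutants, and HnRNP-K had 1.84 and 0. The order of neighbours from Psi down rests on few reads, with 61 reads of Psi, 22 of qkr58E-2, 9 of HnRNP-K, 8 of how and 7 of qkr58E-3 in all libraries, and these neighbours were not told apart.

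Other RNA-binding genes, listed by function, gave the context. Of 17 further KH-domain genes in the files, 5 passed the filter and edgeR called 0 (0 at an unadjusted p under 0.05), with a median log2 fold change of -0.004 against 0.01 over all features tested. The most counted were PNPase, of a mitochondrial RNA-degrading enzyme, at -0.01, CG7488 at 0.07 and nsr at -0.67 (SE 0.34; edgeR adjusted p = 0.372). PNPase lies opposite Gcn2 and Gprk2, and CG7488 lies opposite CG17327 and CG44194. nsr, which lies opposite Cyp6d2, had 13, 14, 33 and 7 reads in mutants and 23, 27, 27 and 25 in controls, and it was called lower, at -1.20 (edgeR adjusted p = 0.0195), once mutant replicate 3 was left out. BicC, CG3927, CG4021 and CG10384 had 0 reads in every library.

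Of 17 genes for partners of the fragile X protein, 6 were tested, with 0 called (0 at an unadjusted p under 0.05) and a median of 0.06. AGO2 (0.03) and AGO1 (0.16), which encode the Argonaute proteins of small-RNA silencing, and Cyfip (0.08), of an actin regulator that binds FMRP, had the most reads and all lie opposite other genes. Of 35 further splicing regulators in the files, 8 were tested, with 0 called (1 at an unadjusted p under 0.05) and a median of -0.19. After elav, the most reads were those of U2af38 (0.06, opposite CG11562) and the SR protein gene SC35 (0.01, opposite eRF3). U2af38 encodes a subunit of the factor that marks the end of introns. DESeq2 and limma-voom also called 0 of the listed genes. Of the listed genes below the filter 46 had reads, and the groups did not overlap for 2 of them, beside 9.23% of all tested features. These 2, named after their values were seen and given as a description, were Syp, with 12 reads in mutants and 27 in controls, and Rbp6, with 5 and 12.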

How the data were processed

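The deposited files hold raw read counts per gene for 8 libraries, which per the labels came from total RNA of whole larvae. Tools credited in the notes of the submitters are HTSeq 0.6.1p1, whose summary lines the deposited files carry, TopHat2 2.0.13 with Bowtie2 2.2.4, Trimmomatic 0.32, CASAVA, and also DESeq2. Build, annotation, library kit and strand setting are not given in the sources used here. The paper's methods describe heterozygous controls and another quantification, so the labels were followed for the groups. Lines of HTSeq that name no gene were left out: reads in no feature were 65.1% to 77.2% of the alignments counted in a library, non-unique ones 21.2% to 33.7%, and reads in several features 0.0255% to 0.035%.

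Mutants and controls were compared in edgeR 4.0.16 (R 4.3.3) by its quasi-likelihood test, with the default expression filter, TMM scaling, no covariate and Benjamini-Hochberg adjustment over all 2589 features tested. The approximate 95% interval of a log2 fold change came from its SE. Members below the filter were tested on log2(CPM + 1) over all 70 assignments of libraries to groups. Ratios of reads carry exact Clopper-Pearson intervals, and these and the floor of 3 reads cover counting error only. The fit was tested on simulated data. Positions and overlaps came from the BDGP6 annotation, release 115, which 17151 features matched and which may not be the one used for counting; bl was matched to HnRNP-K and kep1 to qkr58E-3 by synonym.

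The members and the gene lists were chosen with earlier results of these data known. The text names all members, every feature overlapping them, the nearest features beside mub, and per list the called features and the 3 with most reads. It also names the 5 tested features whose log2(CPM + 1) correlated best with mub, and Ldh. Others, such as P5CDh1, Nopp140 and asRNA:CR43933, were chosen after their values were seen. The alternatives were DESeq2 1.42.0, limma-voom (limma 3.58.1), other scalings and filters, robust estimation, a replicate block, each library left out, and opposite-strand reads in place of or added to those of each gene (at least 50 bases of shared exon). The 500000-base window was added after seeing the data. One feature is not reported here.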

Additional observations from a re-analysis of the deposited data

Results flagged for a closer look

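In 2 of 22 sets of 4 values, 1 library lay apart from the other 3 by more than Dixon's 95% critical value. Chance gives this in about 1 of 20 such sets. PolE4, opposite qkr58E-1, was at 34.6 CPM in control replicate 5 against 62.8 to 65.4 CPM in the other controls. VepD, opposite qkr58E-3, was at 138.6 CPM in control replicate 6 against 115.5 to 115.8 CPM in the other controls. Neither set is that of a KH-domain gene.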

How the results depend on the processing

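The log2 fold change of mub was -1.78 to -1.68 with 1 library left out, and lower in mutants under each of its 18 alternatives. The sum of own and opposite-strand reads, among these 18, left the mub counts unchanged and is no check of its strand. The count of members past the threshold includes mub, which was chosen on this contrast, so nothing is read from its part in the count. The count was 1 with all libraries and with 1 library left out (1 to 1), that 1 being mub, and 2 with own and opposite-strand reads summed, where qkr58E-3 was added. With opposite-strand reads only it was 1, qkr58E-3, and mub, ps, Fmr1 and qkr58E-1 have no value in that fit. In both settings the qkr58E-3 call came from the reads of VepD, whose exons lie mostly outside qkr58E-3. The overlapping features called ranged from 0 to 2 with 1 library left out: 0 without control replicate 6, mutant replicate 2 or mutant replicate 6, and 2 without control replicate 5. Of the listed RNA-binding genes 0 to 1 were called with 1 library left out, the 1 being nsr without mutant replicate 3. ps, Fmr1 and qkr58E-1 were not called in any of the 18 alternatives that gave them a value. In the sum of own and opposite-strand reads their counts were likewise unchanged. The members below the filter had 0 calls under each pseudocount. Over all features 82 were called, against 184 with no filter, 164 without mutant replicate 3, 138 with the replicate block, and 104 (38 higher, 66 lower) with library totals.

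For replicate numbers 1, 2 and 6, deviations from the group mean in same-numbered mutants and controls correlated at -0.113, 0.009 and -0.038. These values cannot show whether same-numbered samples shared a collection or batch. With the replicate block, on the 6 libraries with shared numbers, mub was at -1.65 and 1 listed gene, nsr, was called (-1.32, edgeR adjusted p = 0.0203). The same 6 libraries without the block gave 118 calls over all features, nsr among them. Low counts limit HnRNP-K, how, qkr58E-2 and qkr58E-3, which had 22 reads or fewer each over all libraries. Only 1.24% to 1.62% of the alignments counted in a library were assigned to genes.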
